A study of Mus musculus with 10 samples.

Results

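The genes described here encode enzymes and a chaperone that modify, fold, trim and crosslink collagen. They are the 10 genes *P4ha1*, *P4ha2*, *P3h1*, *Plod1*, *Plod2*, *Serpinh1*, *Adamts2*, *Lox*, *Loxl1* and *Loxl2*, listed by symbol, of the 53465 genes in the count table. RNA was sequenced in bulk from the pinna prominence, the embryonic outer ear, micro-dissected at embryonic stage E14.5 from 5 wild-type (WT) and 5 *mEC1*dup/dup mouse embryos. In *mEC1*dup/dup embryos, CRISPR/Cas9 genome editing had inserted a further copy of mEC1, an enhancer near the homeobox gene *Hmx1*, into both alleles. Both genotypes were on a C57BL/6J background. The labels name each library as a replicate of its genotype and give neither sex nor litter, and the number of founder lines behind the knock-in embryos was not given in the sources used here. The comparison asks which genes differ in the forming pinna when this enhancer is duplicated.

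A collagen chain is modified in the endoplasmic reticulum before it folds. Prolyl 4-hydroxylases act on prolines and thereby make the triple helix stable at body temperature, prolyl 3-hydroxylase modifies rare prolines, lysyl hydroxylases act on lysines that later carry sugars or crosslinks, and the chaperone HSP47 holds the helix together until it leaves. Outside the cell, proteinases trim the ends of procollagen, and copper-dependent lysyl oxidases convert lysines to the aldehydes that crosslink fibrils of collagen and elastin. In the forming pinna, fibroblasts, perichondrium and cartilage lay down this matrix.

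Of the members, the prolyl 4-hydroxylase genes *P4ha1* and *P4ha2* alone were called lower in *mEC1*dup/dup. *P4ha1* was 19.3% lower and *P4ha2* 19.2% lower than in WT, whereas the lysyl hydroxylases, the lysyl oxidases, *P3h1*, *Serpinh1* and *Adamts2* did not pass the test. The 95% intervals of *Loxl1*, *P3h1* and *Serpinh1* also lay below 0, and a difference between the enzyme classes was not tested. A gene was called at an adjusted p (Benjamini-Hochberg, over all 16426 genes tested) of 0.05 or less in the quasi-likelihood test of edgeR, provided its average log2 CPM, the read count scaled to library size, was at least 1. By this rule 2 of the 10 members were lower and 0 higher, against 2.65% of all genes tested called, 1.81% lower and 0.834% higher. Neither of these calls was kept once *Xist* or the embryonic globin share entered the fit, where the estimate for *P4ha1* was -0.36 and -0.32 with larger standard errors and that for *P4ha2* -0.26 and 0.31. All 10 members had a negative log2 fold change, as did 51.2% of all genes tested, and their median was -0.12 beside -0.00415 for all genes. At an unadjusted p under 0.05, 5 members were lower and 0 higher, where 9.08% of all genes were lower and 7.1% higher. All 10 members passed the filter on low counts, and their counts ran from 1240 for *P4ha2* to 42438 for *Serpinh1* in a library. The members share libraries and are not independent of each other. They were also chosen with earlier results of these data known, so the shares beside them are a description and not a test.

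Total counts per library ran from 17461544 to 18462073, and the genotype labels were checked by *Hmx1*, the gene beside the duplicated enhancer (log2 fold change 1.31, standard error 0.10, with 0.000127 as its adjusted p in edgeR), whose groups did not overlap. The libraries also differed in *Xist*, in the globin genes and in the cell type markers given with the members. *Xist*, the marker of a silenced X chromosome, reached at most 5 counts in any WT library, whereas *mEC1*dup/dup replicates 1 to 5 had 12812, 19040, 18165, 2096 and 0. Sex, as *Xist* marks it, and genotype therefore cannot be fully told apart for the members, since *mEC1*dup/dup replicate 5 alone shares the low level of WT. The share of embryonic genes among globin counts averaged 21.3% ± 2.07 (SD, n = 5) for WT and 34.3% ± 1.22 (SD, n = 5) for *mEC1*dup/dup, with no overlap between the groups.

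The catalytic subunits of prolyl 4-hydroxylase are encoded by *P4ha1*, the widespread form, and *P4ha2*, which is prominent in cartilage and bone. In GRCm39, *P4ha1* (ENSMUSG00000019916) lies on the plus strand at chr10:59159092-59209126 and *P4ha2* (ENSMUSG00000018906) on the plus strand at chr11:53981553-54022494. The bases before their canonical transcripts are shown because both genes are known to be induced in low oxygen, and the hypoxia-inducible factors bind a core of ACGTG or GCGTG. In the 250 bases before the start of the canonical transcript, read from GRCm39 on the plus strand at chr10:59158842-59159091 and chr11:53991500-53991749, capitals mark this core on either strand (on the minus strand it reads CACGT or CACGC):
P4ha1: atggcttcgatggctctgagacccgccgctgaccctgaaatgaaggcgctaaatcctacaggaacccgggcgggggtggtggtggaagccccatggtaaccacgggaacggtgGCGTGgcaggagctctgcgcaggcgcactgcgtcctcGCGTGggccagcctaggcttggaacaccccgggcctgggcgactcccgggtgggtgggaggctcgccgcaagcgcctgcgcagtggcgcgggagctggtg
P4ha2: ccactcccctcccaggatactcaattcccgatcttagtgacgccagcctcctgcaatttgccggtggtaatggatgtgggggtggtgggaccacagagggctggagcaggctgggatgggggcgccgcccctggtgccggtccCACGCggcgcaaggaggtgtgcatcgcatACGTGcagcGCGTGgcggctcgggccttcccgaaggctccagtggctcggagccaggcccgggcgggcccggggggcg
The *P4ha1* window held 2 such cores, 137 to 133 and 100 to 96 bases upstream, and the *P4ha2* window 3, of which the nearest lay 69 to 65 bases upstream. The *P4ha2* window lies within the annotated gene, which begins at chr11:53981553, so bases before that annotated start were not read. Of the 10 members, 6 held at least 1 core (*P4ha1*, *P4ha2*, *P3h1*, *Plod1*, *Plod2* and *Lox*), as did 49.3% of 16321 windows of the same length before the genes tested. CAAGTG, the core that HMX proteins bind, was found in the window of 1 member, *Plod1*, and in 11% of all windows. Such a match is a description of these letters and not a site in use.

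*P4ha1* stood at 207, 224, 231, 202 and 211 CPM in WT replicates 1 to 5 and at 166, 175, 185, 174 and 168 CPM in *mEC1*dup/dup replicates 1 to 5. The highest *mEC1*dup/dup embryo was thus below the lowest WT embryo. WT averaged 215 ± 12.1 CPM (SD, n = 5) and *mEC1*dup/dup 174 ± 7.49 (SD, n = 5), a log2 fold change of -0.31 (standard error 0.04, 95% interval -0.40 to -0.21, adjusted p = 0.00493 by edgeR). The gene ranked 35 of the 16426 by p. With each embryo left out in turn, *P4ha1* was called in 10 of 10 fits, with log2 fold changes between -0.33 and -0.28.

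*P4ha2* was less abundant than its partner. It stood at 97.5, 94.6, 96.8, 75.9 and 89.8 CPM in WT and at 70.9, 76.5, 69.5, 73.8 and 76.4 CPM in *mEC1*dup/dup. WT replicate 4 lay among the *mEC1*dup/dup embryos, and the other 4 WT embryos lay above all of them. From 90.9 ± 8.89 CPM (SD, n = 5) to 73.4 ± 3.19 CPM (SD, n = 5), the log2 fold change was -0.31 (standard error 0.06, 95% interval -0.44 to -0.17, adjusted p = 0.0224 by edgeR). This call was less stable than that of *P4ha1*, since 4 of 10 leave-one-out fits kept it, with adjusted p between 0.00104 and 0.0783. It was lost without WT replicate 1, 2 or 3 and without *mEC1*dup/dup replicate 2, 3 or 4.

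**Figure D1:**
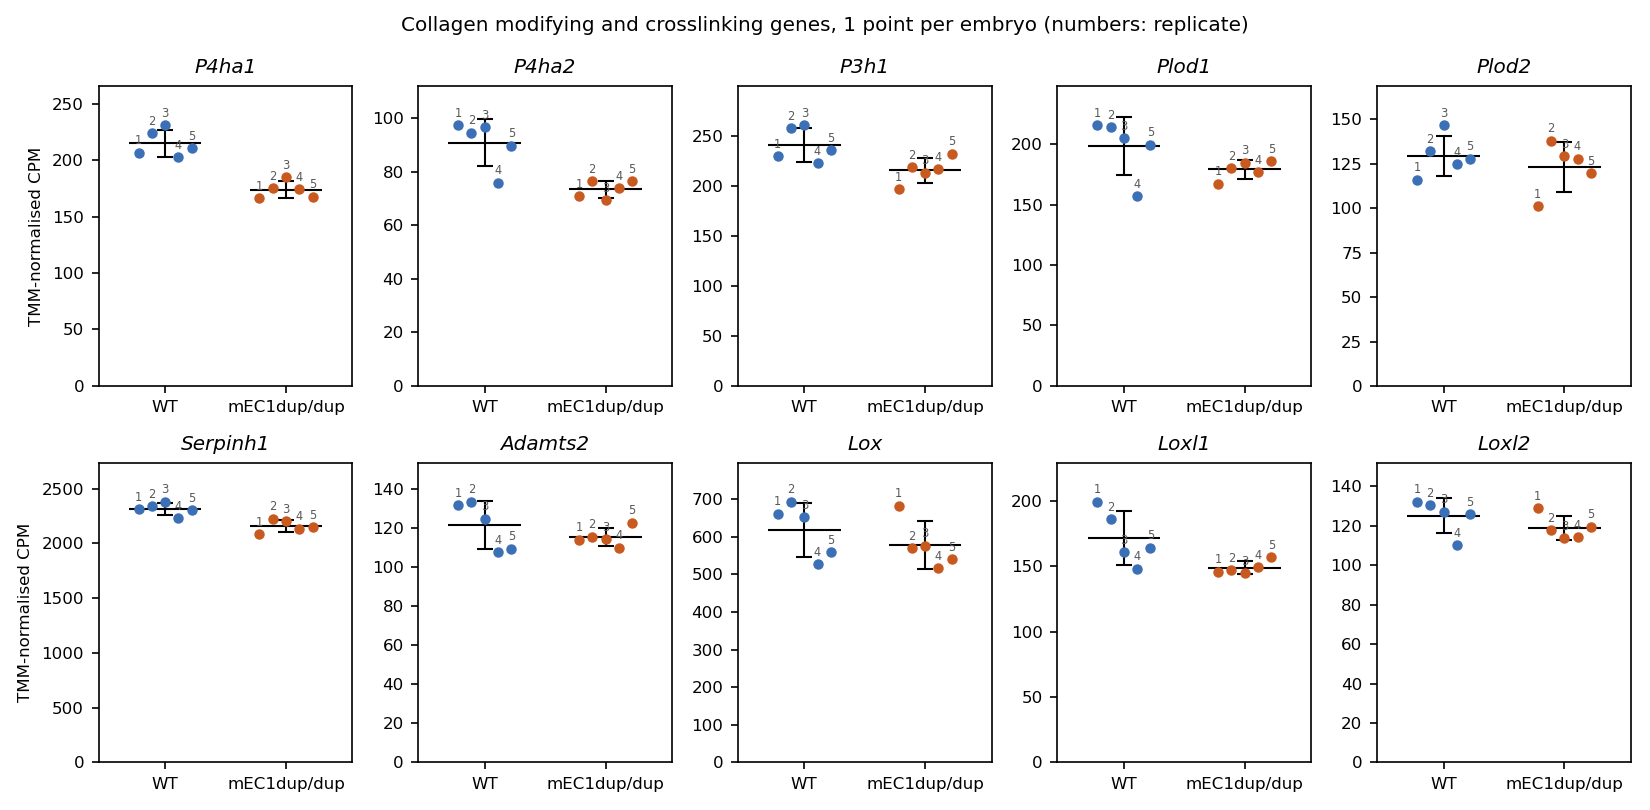
TMM-normalised CPM (y axis, from 0) of each gene in the 5 WT and 5 *mEC1*dup/dup embryos. Points are embryos with their replicate number, horizontal lines are means and bars are SD. The *P4ha1* and *Serpinh1* groups do not overlap, and WT replicate 4 is the lowest WT embryo for 9 of the 10 genes.

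Because both subunit genes fell by a like amount, the share of *P4ha1* among their summed counts was 70.3% ± 1.69 (SD, n = 5) for WT against 70.3% ± 1.49 (SD, n = 5) for *mEC1*dup/dup. Scaled to exonic length it was 76.2% in WT and 76.1% in *mEC1*dup/dup. *P4hb*, the second subunit of the enzyme and also a general disulfide isomerase, averaged 1111 ± 37.9 CPM (SD, n = 5) for WT and 1061 ± 37.2 (SD, n = 5) for *mEC1*dup/dup and was not called (log2 fold change -0.07, 95% interval -0.14 to 0.01). *P4ha3*, the third catalytic subunit gene, had an estimate of -0.14 with a wide interval of -0.46 to 0.18.

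*P3h1*, the prolyl 3-hydroxylase that works in a complex with CRTAP and cyclophilin B, stood at 230, 257, 261, 223 and 236 CPM in WT and at 196, 219, 213, 216 and 232 CPM in *mEC1*dup/dup. The groups overlapped through *mEC1*dup/dup replicate 5, which exceeded the 2 lowest WT embryos. Its log2 fold change was -0.16 (95% interval -0.28 to -0.05, adjusted p = 0.137 from the edgeR test). Its partners *Crtap* (-0.12, 95% interval -0.21 to -0.03) and *Ppib* (-0.06, 95% interval -0.14 to 0.02) were not called either. In GRCm39 the gene lies at chr4:119089974-119106174 (plus strand). An antisense gene covers 10.6% of the exonic bases of *P3h1*, and since the counting is not stated to use strand, reads of the pair cannot be told apart.

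*Serpinh1*, which encodes HSP47 and lies at chr7:98994220-99005076 (minus strand) in GRCm39, was the most abundant member. It stood at 2312, 2342, 2382, 2228 and 2305 CPM in WT and at 2084, 2226, 2203, 2136 and 2148 CPM in *mEC1*dup/dup. All *mEC1*dup/dup embryos were below all WT embryos, though *mEC1*dup/dup replicate 2 and WT replicate 4 differed by little. The means of 2314 ± 56.7 CPM (SD, n = 5) and 2159 ± 56.5 CPM (SD, n = 5) gave a log2 fold change of -0.10 (standard error 0.03, 95% interval -0.17 to -0.03), which did not pass the edgeR test (adjusted p = 0.130). Of its 21 alternative fits 2 gave a call, the Wald test of DESeq2 (adjusted p = 0.0319) and the fit without WT replicate 4, and the adjusted p over all of them ran from 0.0319 to 0.966. *P4ha1* and *Serpinh1* were the 2 members whose groups did not overlap in this direction, against 2.75% of all genes tested, and no member had every *mEC1*dup/dup embryo above WT, against 2.33%.

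The lysyl hydroxylases *Plod1* and *Plod2* act on different lysines, *Plod1* mainly on those of the helix and *Plod2* on those of the telopeptides that form crosslinks. *Plod1* stood at 216, 214, 205, 157 and 200 CPM in WT and at 167, 180, 185, 177 and 186 CPM in *mEC1*dup/dup. Apart from WT replicate 4, which had the lowest value of all 10 embryos, WT lay above *mEC1*dup/dup. With all embryos the log2 fold change was -0.15 (95% interval -0.30 to 0.01, adjusted p = 0.348), and without WT replicate 4 it was -0.22 (adjusted p = 0.00890, edgeR). *Plod2* stood at 116, 132, 147, 125 and 128 CPM in WT and at 101, 138, 129, 128 and 120 CPM in *mEC1*dup/dup, and the groups overlapped widely (log2 fold change -0.07, 95% interval -0.24 to 0.10, adjusted p = 0.719). The lowest value belonged to *mEC1*dup/dup replicate 1. With 1 embryo left out, the estimate for *Plod2* ran from -0.11 to -0.008, the latter without that embryo, and was never called. *Plod1* lies at chr4:147991574-148021356 (minus strand) and *Plod2* at chr9:92424119-92490494 (plus strand) in GRCm39, and an antisense gene covers 7.82% of the exonic bases of *Plod2*. Among the counts of *Plod1*, *Plod2* and *Plod3*, the share of *Plod2* was 29.2% ± 2.51 (SD, n = 5) for WT against 30.2% ± 1.58 (SD, n = 5) for *mEC1*dup/dup.

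*Adamts2*, at chr11:50492787-50698400 (plus strand) in GRCm39, encodes the main proteinase that removes the amino-terminal propeptide of fibrillar procollagens. It stood at 132, 133, 125, 107 and 109 CPM in WT and at 114, 115, 114, 110 and 122 CPM in *mEC1*dup/dup. WT replicates 4 and 5 lay below every *mEC1*dup/dup embryo and WT replicates 1 to 3 above every one. The log2 fold change of -0.07 had a 95% interval of -0.21 to 0.06 (adjusted p = 0.615 from the edgeR test). Of the other genes for this step, *Adamts14* fell and *Adamts3* was not called.

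The lysyl oxidases were led by *Lox*, at 662, 694, 653, 528 and 559 CPM in WT and at 684, 571, 576, 517 and 541 CPM in *mEC1*dup/dup. *mEC1*dup/dup replicate 1 lay near the top of WT, and the groups overlapped over most of their range (log2 fold change -0.10, 95% interval -0.28 to 0.08, adjusted p = 0.620 from the edgeR test). With 1 embryo left out, the estimate for *Lox* ran from -0.17 to -0.05 and was never called. *Loxl1*, which is needed for elastic fibres, stood at 199, 186, 161, 148 and 164 CPM in WT and at 146, 147, 144.7, 149 and 157 CPM in *mEC1*dup/dup. WT replicate 4 lay within the narrow *mEC1*dup/dup range, and the other WT embryos lay above it. Its log2 fold change of -0.21 (standard error 0.07, 95% interval -0.35 to -0.06) did not pass the test (adjusted p = 0.140), and without WT replicate 4 it was -0.26 (adjusted p = 0.0275, edgeR). *Loxl2*, which crosslinks collagen IV of basement membranes, stood at 132, 131, 127, 110 and 126 CPM in WT and at 129, 118, 114, 114 and 120 CPM in *mEC1*dup/dup, again with WT replicate 4 lowest (log2 fold change -0.08, 95% interval -0.19 to 0.04, adjusted p = 0.528). Other genes, 2 of them antisense, cover 22.7% of the exonic bases of *Loxl2*. *Loxl1* lies at chr9:58195014-58220495 (minus strand) and *Loxl2* at chr14:69846209-69933283 (plus strand) in GRCm39. Of the counts of *Lox*, *Loxl1* and *Loxl2*, *Lox* made up 67.5% ± 1.48 (SD, n = 5) for WT against 68.2% ± 2.15 (SD, n = 5) for *mEC1*dup/dup.

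**Figure D2:**
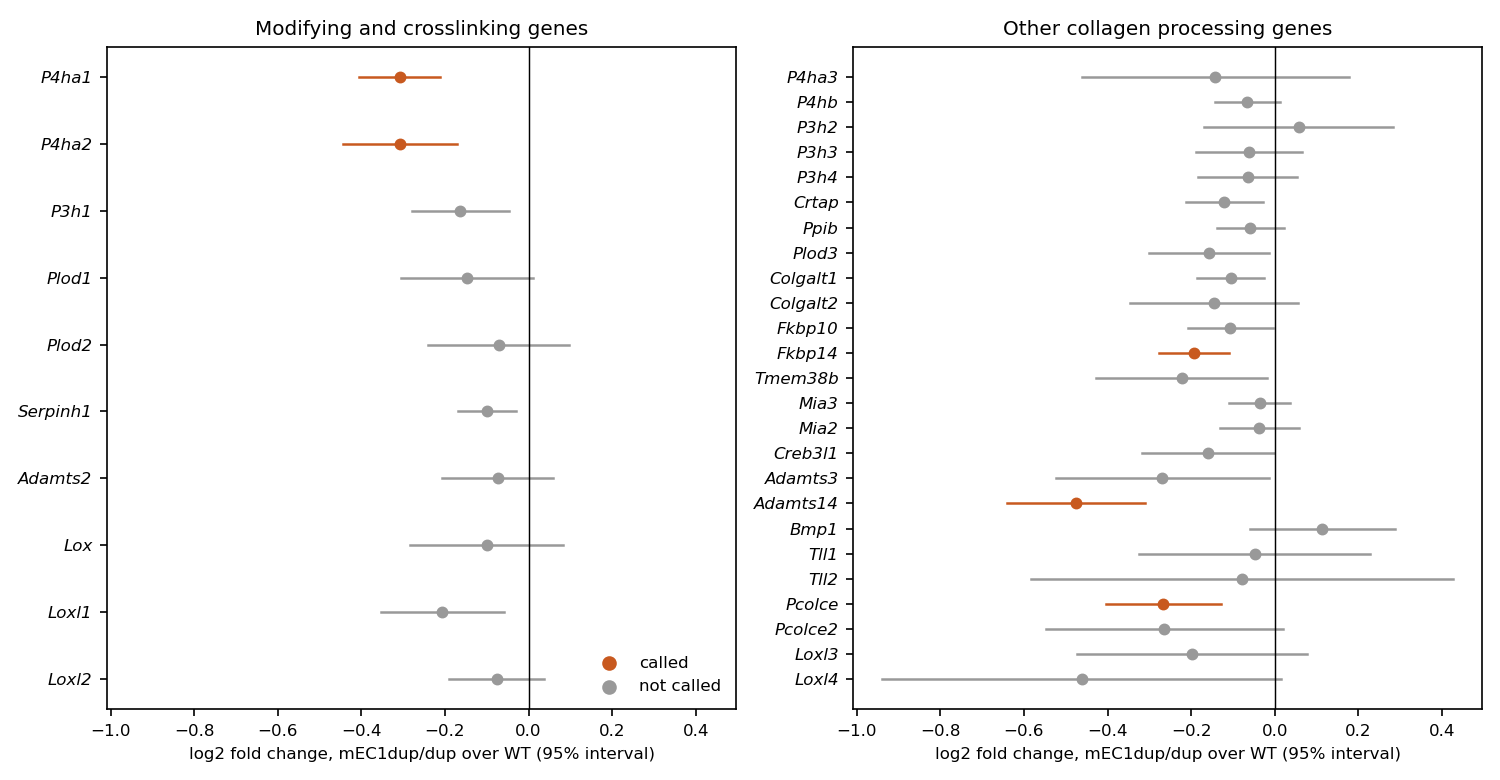
Log2 fold change of *mEC1*dup/dup over WT (x axis) with 95% intervals for the 10 members (left) and for 25 other genes of collagen processing (right). Coloured points were called by the edgeR test, namely *P4ha1*, *P4ha2*, *Adamts14*, *Fkbp14* and *Pcolce*. All 10 estimates on the left and 23 of 25 on the right lie below 0.

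Compared per kilobase of exon, the members spanned a wide range of levels. In WT the order was *Serpinh1* at 330 CPM per kilobase, *Lox* at 126, *Loxl1* at 43.4, *P3h1* at 39.1, *P4ha1* at 33.2, *Loxl2* at 22.7, *Plod1* at 20.8, *Plod2* at 20.1, *Adamts2* at 12.8 and *P4ha2* at 10.4. The ranges over embryos overlapped between *Loxl1* and *P3h1*, between *Loxl2* and *Plod1* and between *Plod1* and *Plod2*, so these neighbours are not separated in WT. In *mEC1*dup/dup the order was the same except that *Plod2*, at 19.2, came before *Plod1*, at 18.8, with overlapping ranges.

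The embryos of one genotype also differed from each other. WT replicate 4 was the lowest WT embryo for 9 of the 10 genes, all but *Plod2*, and the lowest of all embryos for 3. *mEC1*dup/dup replicate 1 was the lowest *mEC1*dup/dup embryo for 5 genes and the lowest of all embryos for 4, namely *P4ha1*, *P3h1*, *Plod2* and *Serpinh1*, and its chondrocyte markers were also the lowest, at 973 CPM. The highest of the 10 embryos was a WT embryo for every member, namely replicate 1 for 4 genes, replicate 2 for 2 and replicate 3 for 4. Without WT replicate 4, 5 members were called lower: *P4ha1*, *P4ha2*, *Plod1*, *Serpinh1* (adjusted p = 0.0382, edgeR) and *Loxl1*. In the same fit lower genes over all 16593 tested rose in number from 298 to 476. The labels give no ground to leave that embryo out.

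**Figure D3:**
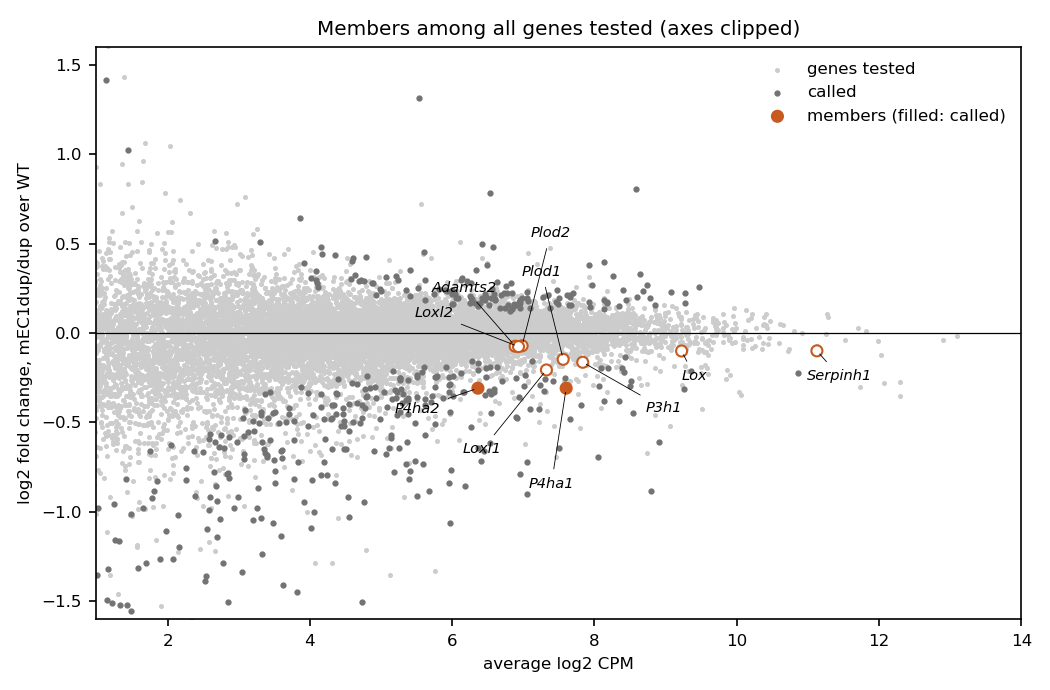
Log2 fold change of *mEC1*dup/dup over WT (y axis) against average log2 CPM (x axis) for all genes tested within the axes shown, with called genes in dark grey and the 10 members as circles, filled where called. The members lie below 0 among highly expressed genes, and *P4ha1* and *P4ha2* lie at -0.31.

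The other 25 genes of collagen processing, a list of folding, secretion, trimming and crosslinking genes, held 3 lower and 0 higher genes. Over all genes tested, 1.81% were called lower and 0.834% higher. The list had 23 negative log2 fold changes and a median of -0.12. At an unadjusted p under 0.05 by edgeR, 10 of its genes were lower and 0 higher, against 9.08% and 7.1% of all genes tested. *Adamts14*, an amino-terminal procollagen proteinase, fell from 30.7 ± 3.15 CPM (SD, n = 5) to 22.1 ± 1.42 CPM (SD, n = 5) (log2 fold change -0.48, standard error 0.08, adjusted p = 0.00804 by edgeR). *Fkbp14*, a prolyl isomerase of the endoplasmic reticulum, fell by 0.19 on the log2 scale (adjusted p = 0.0200, edgeR), and *Pcolce*, which enhances removal of the carboxy-terminal propeptide, by 0.27 (adjusted p = 0.0444, edgeR). The groups of these genes did not overlap. *Adamts14* was called in 10 of 10 leave-one-out fits, *Fkbp14* in 8 and *Pcolce* in 3, and the count of this list was 1 without WT replicate 2 or without *mEC1*dup/dup replicate 3. None of these genes was called by edgeR once *Xist* entered the fit (*Adamts14* -0.35, adjusted p = 0.45, *Fkbp14* -0.23, adjusted p = 0.413, and *Pcolce* -0.18, adjusted p = 0.671) or the globin share, where *Adamts14* was at -0.11, *Fkbp14* at -0.29 and *Pcolce* at 0.23. *Bmp1*, the carboxy-terminal proteinase, and *P3h2* were the genes with positive estimates (0.11, 95% interval -0.06 to 0.29, and 0.06, 95% interval -0.17 to 0.28).

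The substrates of these enzymes had the larger median estimate. Of 12 fibrillar collagens and elastin, 1 was called lower and 0 higher, against 1.81% and 0.834% of all genes tested. All 12 log2 fold changes were negative and their median was -0.28. At an unadjusted p under 0.05 by edgeR, 7 were lower and 0 higher, against 9.08% and 7.1% of all genes tested. *Col5a3*, a minor chain of collagen V, fell from 36.5 ± 4.95 CPM (SD, n = 5) to 23.1 ± 3.55 CPM (SD, n = 5) (log2 fold change -0.66, standard error 0.11, adjusted p = 0.0107 by edgeR). Without WT replicate 4, 7 genes of this list were called lower, in the fit with 476 lower genes in all. With the replicate number as a block, 4 were called lower, in a fit with 488 lower genes in all. *Col5a3* was at -0.51 (adjusted p = 0.463 by edgeR) with *Xist* in the fit and at -0.18 with the globin share, and was not called in either. The major fibrillar chains were not called, with log2 fold changes of -0.35 for *Col1a1* (95% interval -0.63 to -0.07), -0.28 for *Col1a2* (95% interval -0.50 to -0.06) and -0.28 for *Col3a1* (95% interval -0.49 to -0.07). Summed over these chains, WT replicates 1 to 5 had 19397, 17297, 16690, 11487 and 14389 CPM and *mEC1*dup/dup replicates 1 to 5 had 13776, 12730, 12169, 12356 and 13247 CPM. WT replicate 4 was again the lowest of all embryos.

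Set against these collagens, the prolyl 4-hydroxylases did not separate the genotypes. *P4ha1* and *P4ha2* together had 15.7, 18.4, 19.6, 24.2 and 20.9 counts per 1000 counts of *Col1a1*, *Col1a2* and *Col3a1* in WT and 17.2, 19.8, 20.9, 20.1 and 18.4 in *mEC1*dup/dup. The *mEC1*dup/dup values lay inside the WT range, with means of 19.3 ± 1.46 (SD, n = 5) and 19.8 ± 3.15 (SD, n = 5). Measured the same way, *Lox* had 39.6 ± 4.24 (SD, n = 5) for WT against 44.9 ± 3.70 (SD, n = 5) for *mEC1*dup/dup, and *Serpinh1* 150.3 ± 28.5 (SD, n = 5) and 168 ± 11.8 (SD, n = 5), with overlapping groups. These ratios are given as a description without a test. In bulk RNA, fewer cells that make collagen and less RNA per cell cannot be told apart.

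**Figure D4:**
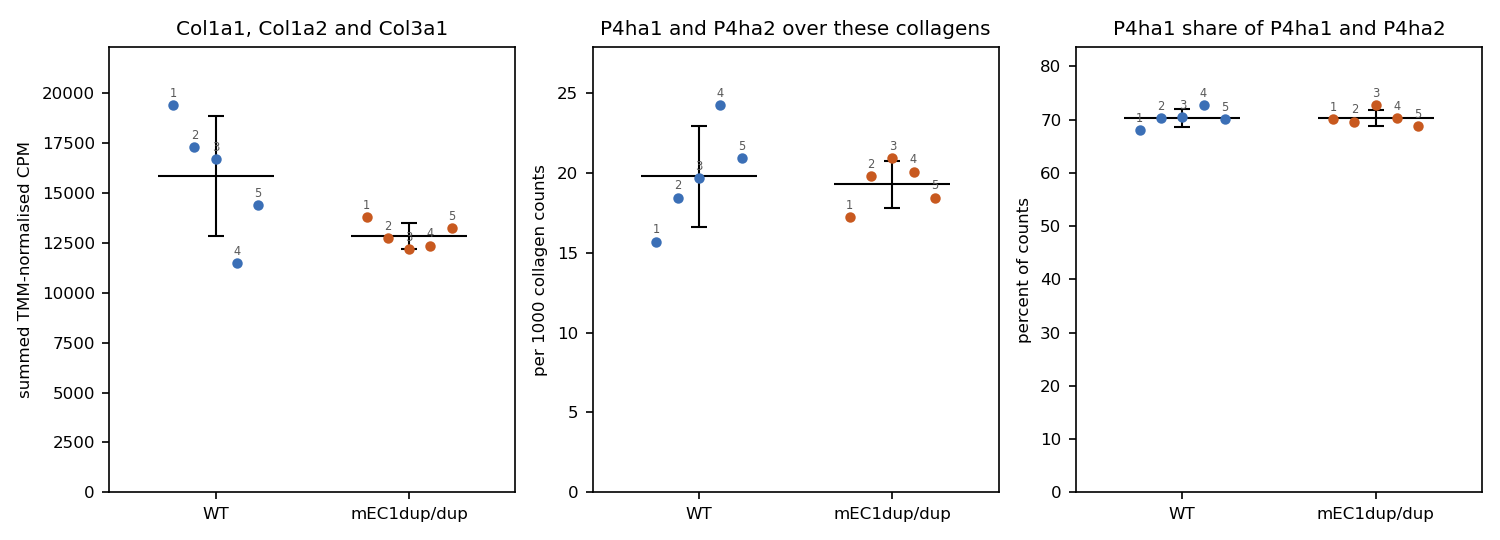
Summed CPM of *Col1a1*, *Col1a2* and *Col3a1* (left), *P4ha1* and *P4ha2* counts per 1000 counts of these collagens (middle) and the percentage of *P4ha1* in *P4ha1* and *P4ha2* counts (right), by embryo. Points are embryos with their replicate number, lines are means and bars are SD. The groups overlap in every panel, and WT replicate 4 is lowest on the left and highest in the middle.

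*P4ha1*, *P4ha2*, *Plod2* and *Lox* are also known as genes induced by hypoxia. Of 25 other hypoxia response genes, 21 had a negative log2 fold change and the median was -0.16. In this list 3 were called lower and 0 higher, against 1.81% and 0.834% of all genes tested. By edgeR, 11 of the 25 were lower and 1, *Ddit4*, was higher at an unadjusted p under 0.05. Over all genes tested these shares were 9.08% and 7.1%. Genotype groups were fully separated for 5 genes of the list, all in the lower direction, as for 2.75% of all genes tested. The called genes were *Ndrg1*, a stress-responsive gene of differentiation (-0.52, adjusted p = 0.0100), and the glycolytic enzymes *Aldoa* (-0.27, adjusted p = 0.0139) and *Ldha* (-0.21, adjusted p = 0.0360, all from the edgeR test). *Ndrg1* was called in 10 of 10 leave-one-out fits, *Aldoa* in 9 and *Ldha* in 2, and the list held 8 lower genes without WT replicate 4 and 1 without *mEC1*dup/dup replicate 3, where lower genes over all tested numbered 476 and 120. With *Xist* in the fit none of them was called and their estimates were nearer 0, at -0.27 for *Ndrg1*, -0.14 for *Aldoa* and -0.06 for *Ldha*. With the globin share *Ndrg1* was at 0.19, *Aldoa* at -0.18 and *Ldha* at -0.03, again with no call. *Vegfa*, a classical target, had an estimate of 0.00357 (95% interval -0.16 to 0.17), *Slc2a1* one of -0.21 (95% interval -0.36 to -0.06) and *Ddit4* one of 0.14 (95% interval 0.04 to 0.23), and none of these was called. Within the members known for hypoxia, *P4ha1* and *P4ha2* were called lower, while *Plod2* and *Lox* were not called.

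Markers of the cell types in the dissected tissue were read beside these values. Among all genes tested, 1.81% were called lower and 0.834% higher. Of 8 fibroblast markers 2 were lower, with a summed level of 2161 to 2493 CPM in WT and 2046 to 2473 CPM in *mEC1*dup/dup, and of 8 tendon and perimysial markers 4 were lower (347 to 431 CPM and 306 to 339 CPM). Of 8 chondrocyte markers 1 was lower, with 2111 to 3423 CPM in WT, 973 CPM in *mEC1*dup/dup replicate 1 and at least 1963 CPM in the other *mEC1*dup/dup embryos. Skeletal muscle markers were lower in 5 of 8 (1530 to 2317 CPM and 849 to 1376 CPM) and epithelial markers in 4 of 8 (908 to 1656 CPM and 696 to 914 CPM). Of 6 osteoblast markers 4 passed the filter (all but *Bglap* and *Bglap2*) and 0 were called, *Bglap2* had 0 counts in every library and their sum was 23.5 to 82.8 CPM in WT and 21.0 to 37.4 CPM in *mEC1*dup/dup. Of the endothelial, erythroid, macrophage and glial markers, 6 of each, 0 were called. The part of these cell types in the values of the members was not tested.

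The calls of the members were lost with *Xist* or the globin share as a covariate. When log2 CPM of *Xist* entered as a covariate, the estimate for *P4ha1* was -0.36 (standard error 0.08, adjusted p = 0.236) and that for *P4ha2* -0.26 (standard error 0.11, adjusted p = 0.513), so neither was called by edgeR, and 2 genes were called in all. *Xist* and genotype are told apart there only through *mEC1*dup/dup replicate 5, the only knock-in embryo at the WT level. Among embryos without *Xist* alone, which leaves *mEC1*dup/dup replicate 5 against 5 WT, the estimates were -0.36 for *P4ha1* and -0.25 for *P4ha2*. With 1 embryo in a group, that fit cannot decide whether a call is kept. When the embryonic globin share entered instead, the standard error for *P4ha1* rose to 0.20 around an estimate of -0.32, and the estimate for *P4ha2* turned to 0.31 (standard error 0.22). The globin share does not overlap between the genotypes, so in that fit the share and genotype can hardly be told apart. *Hmx1* itself was at 0.34 (adjusted p = 0.921 by edgeR) with the globin share, so that fit also loses its call. With *Xist* as a covariate it was at 1.02 (adjusted p = 0.0280 by edgeR) and still called. Its estimate in embryos without *Xist* was 0.99.

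**Figure D5:**
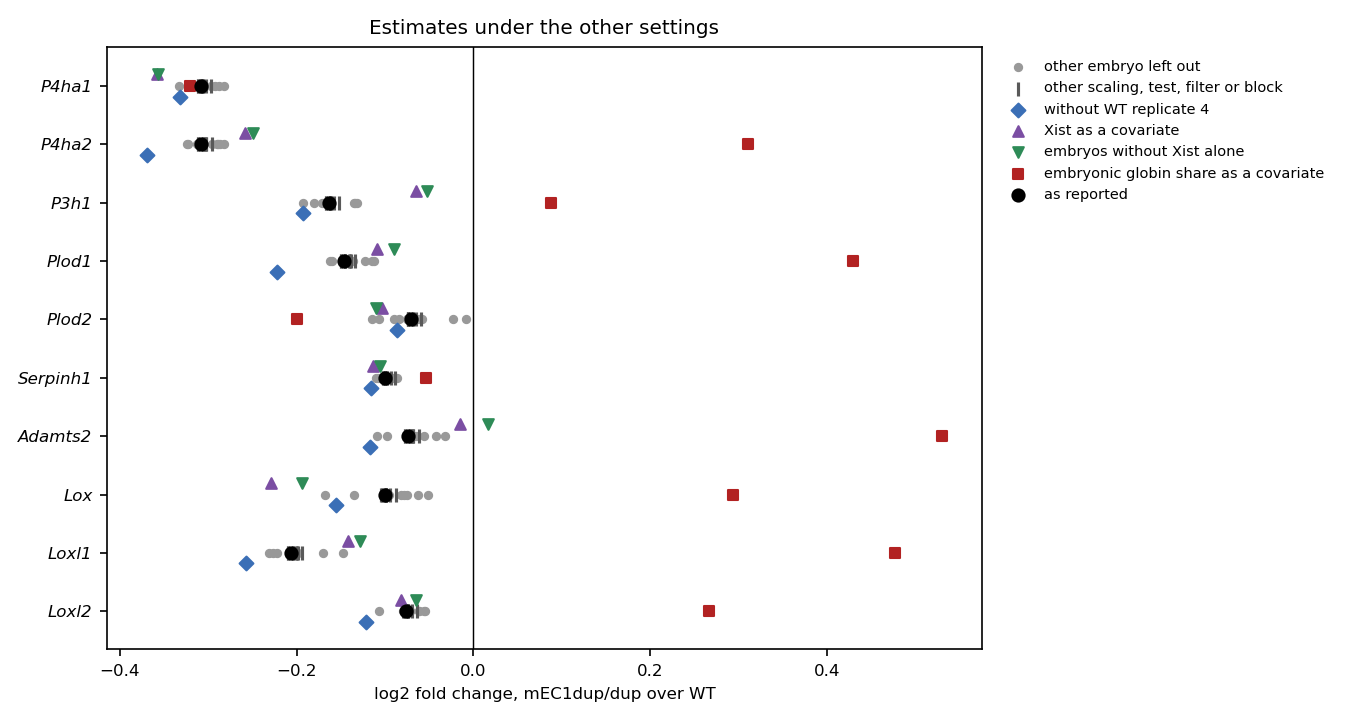
Log2 fold change of *mEC1*dup/dup over WT (x axis) of each member as reported (black) and under the other settings, including each embryo left out in turn. *P4ha1* stays between -0.36 and -0.28 in all of them, whereas 7 members turn positive once the embryonic globin share is a covariate.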

How the data were processed

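RNA of the pinna prominence was sequenced from 5 WT and 5 *mEC1*dup/dup embryos after poly-T selection. The authors used fastp for trimming, STAR for alignment to GRCm39 and featureCounts for counting, and the deposited values are raw counts per gene. The labels name a NEBNext Ultra kit and the methods of the study a TruSeq kit. The annotation release, the use of strand and the treatment of reads with several matches were not given in the sources used here. By identifier, 49355 of 53465 genes matched a GENCODE annotation of GRCm39, and the others held 0.111% of the counts.

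Counts were filtered with filterByExpr, normalized by TMM and fitted with edgeR version 4.0.16 (glmQLFit, glmQLFTest) (R version 4.3.3), with no term but genotype, and p-values were adjusted by the Benjamini-Hochberg method over all 16426 genes tested. Standard errors are the size of the log2 fold change divided by the square root of F. Intervals cover 95%. CPM are TMM-normalised, and exonic lengths are unions of annotated exons. The biological coefficient of variation was 0.113. Alternatives used DESeq2 version 1.42.0, limma version 3.58.1 (voom), other filters and covariates, the replicate number as a block and each embryo left out. Scaling to total counts alone was chosen after seeing the data. The edgeR fit with genotype alone was first tested on simulated counts.

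The members and lists were chosen with earlier results of these data known. The genes named were all members, *Hmx1*, called genes of the other lists, and, chosen after their values were seen, *P4hb*, *P4ha3*, *Crtap*, *Ppib*, *Adamts3*, *Bmp1*, *P3h2*, *Col1a1*, *Col1a2*, *Col3a1*, *Vegfa*, *Slc2a1* and *Ddit4*. Protein sequences were not used here. The plots used matplotlib version 3.10.9.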

Additional observations from a re-analysis of the deposited data

Results flagged for a closer look

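Of 48 groups of 5 embryos tested for a value far from the others, 5 stood out, and chance gives about 1 in 20. WT replicate 4 was far below the other WT embryos for *Plod1*, at 157.1 CPM with the nearest at 199.6, and for *Loxl2*, at 110.2 CPM with the nearest at 126.1. *mEC1*dup/dup replicate 5, the embryo without *Xist* counts, was far above the other *mEC1*dup/dup embryos for *Adamts14*, at 24.53 CPM with the nearest at 21.88, for *Ndrg1*, at 21.5 CPM with the nearest at 17.25, and for *Aldoa*, at 366.4 CPM with the nearest at 325.7. For these 3 genes it still lay below every WT embryo.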

How the results depend on the processing

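All 10 members kept a negative log2 fold change under the other size factors, the DESeq2 Wald test, limma-voom, both filters, the replicate block and every fit that left out 1 embryo. With the globin share as a covariate the estimates reversed for *P4ha2* (0.31), *P3h1* (0.088), *Plod1* (0.43), *Adamts2* (0.53), *Lox* (0.29), *Loxl1* (0.48) and *Loxl2* (0.27), none of them called, and among embryos without *Xist* alone that of *Adamts2* was 0.017. Lower genes over all tested numbered 298 as reported, 510 with the DESeq2 Wald test, 488 with the replicate block and 489 at an adjusted p of 0.1. They numbered 1 with *Xist* as a covariate, 0 with the globin share, and 120 to 476 with 1 embryo left out. Higher genes numbered 137, and under these settings 321, 200, 324, 1 and 0, and 34 to 179. At an unadjusted p under 0.05, edgeR gave 1451 genes with *Xist* and 793 with the globin share. The fit of embryos without *Xist* held 1 *mEC1*dup/dup embryo, so its calls are not counted here. Called members went from 2 to 0 with either covariate, *Xist* or the globin share (2 and 0 members at an unadjusted p under 0.05). They ranged from 1 to 5 with 1 embryo left out. The other processing genes went from 3 to 0 under the same settings (1 to 3 with 1 embryo left out), the fibrillar collagens and elastin from 1 to 0 (1 to 7), and 4 with the block, and the hypoxia genes from 3 to 0 (1 to 8), with 7 under the Wald test, 5 with the block and 6 at an adjusted p of 0.1. *Pcolce* lost its call with limma-voom (adjusted p = 0.0506). No member and no gene of the other lists was called higher under any of these settings. The study states that its mouse replicates were siblings and came from different litters, but the labels do not say which libraries share one. The deviations of same-numbered libraries were correlated by -0.06, 0.14, 0.18, 0.34 and 0.20 (mean 0.162, against -0.04 for other pairs), which hints at pairing for 4 of 5 numbers but not for replicate 1, so the block was kept as an alternative. With it 2 members were called, as without it. The cause of these shifts was not tested. Depth limits the precision of genes with few counts, and p-values cover the spread between these embryos.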
